A study of Arabidopsis thaliana with 16 samples.

Results

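A set of 8 genes that plants switch on when mitochondria are disturbed was followed through proteasome inhibition and through a pair of proteasome mutants of Arabidopsis thaliana. They are AOX1A, AOX1D, NDB2, UPOX, OM66, UGT74E2, SOT12 and AT2G41730, 8 of the 33602 genes counted. They were chosen by gene identifier as known outputs of mitochondrial retrograde signalling, with earlier results of these libraries known. Their levels are therefore given as a description, without a test of their own. All 8 identifiers were found, and all 8 passed the filter on low counts that left 21205 genes, AOX1D through the MG132 libraries alone.

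Plant mitochondria signal to the nucleus when electron transport is impaired, a route called retrograde signalling. NAC017 and NAC013, transcription factors held in the membrane of the endoplasmic reticulum, are released and bind a promoter element called the mitochondrial dysfunction motif. Their targets include an alternative oxidase, which takes electrons from ubiquinol and by-passes the cytochrome pathway, and an external NADH dehydrogenase that feeds ubiquinol from the cytosolic side. The protein RCD1 restrains both factors in the nucleus.

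The tested groups were wild-type Col-0 in 100 µM MG132 for 3 h (4 libraries), Col-0 in 100 µM MG132 for 24 h (4 libraries), untreated rpn10-1 (2 libraries) and untreated rpn12a-1 (2 libraries). Untreated Col-0 (4 libraries) was what they were compared with. All were whole seedlings grown for 5 days in liquid medium with sucrose under constant light. MG132 blocks proteolysis by the 26S proteasome, and rpn10-1 and rpn12a-1 are exon-trap alleles of subunits of its regulatory particle. Untreated Col-0 was harvested at once at 5 days and no library of solvent in fresh medium was analysed here, so MG132, the change of medium and the later harvest cannot be told apart. The labels do not say whether replicates were separate cultures, so the errors cover the spread between these libraries, which may be technical. Col-0 replicates 3 and 4 of each condition and both rpn12a-1 libraries carry a label note of a technical replicate, and the other 8 libraries do not. This library set entered the model as a term.

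Total counts were 6646134 to 21762565 per library. The targeted genes went with the labels: RPN10 was at 21.4 and 22.2 CPM, which are counts scaled to the size of the library, in rpn10-1, against 98.6 to 136 CPM in untreated Col-0, and RPN12A was at 42.9 and 52 CPM in rpn12a-1, against 73.6 to 102 CPM in untreated Col-0. One of the rpn10-1 libraries, replicate 2, stood apart in RNA of seed storage genes, at 69.4 CPM summed over 5 genes, against 0.127 to 4.77 CPM in the other 15 libraries. The 4 shoot markers CAB1, RBCS1A, RCA and LHCA1 summed to 18700 to 26100 CPM after 24 h of MG132, below the 33500 to 46500 CPM of untreated Col-0. The 6 root markers summed to 48.9 to 65.2 CPM after 24 h, against 69.4 to 86.9 CPM in untreated Col-0. The part of these differences in the results below was not tested, and fewer cells of a type and less RNA per cell cannot be told apart in whole seedlings.

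The mitochondrial dysfunction motif was searched in the 1000 bases before each start codon, in the RefSeq genome TAIR10.1. It was written as CTTG, then 5 bases of any kind, then CAAG or CACG, on both strands. It stood before 6 of the 8 genes, against 1178 of 26711 genes, or 4.41%. The motif was first described on promoters of this same response, so its presence here is no independent finding. The matches are shown because they hold the letters of the element through which NAC013 and NAC017 are known to act. Whether either factor binds these sites was not tested. Capitals mark the fixed letters, coordinates are those of the motif without the bases beside it, and each site is read 5′ to 3′ on the strand where the motif reads.
AOX1A, chr3:7906518-7906530, gene strand: ctagctCTTGgcgacCACGcaagta
AOX1A, chr3:7906545-7906557, gene strand: ttccatCTTGctctcCAAGaaaaat
NDB2, chr4:2572348-2572360, gene strand: atctggCTTGgccacCAAGattgtt
NDB2, chr4:2571775-2571787, opposite strand: aaacctCTTGatcatCACGaaccgg
UPOX, chr2:9254327-9254339, gene strand: tagtaaCTTGctctcCAAGgagatc
UGT74E2, chr1:1704813-1704825, gene strand: gcacatCTTGgtcgcCACGgaacat
SOT12, chr2:1150645-1150657, opposite strand: cctttaCTTGaagagCACGtagaat
AT2G41730, chr2:17409361-17409373, gene strand: taatatCTTGctggaCAAGcatttt

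The 2 AOX1A matches began 372 and 345 bases before the start codon, the first of them across the annotated gene start. The 2 NDB2 matches began 404 and 977 bases before the start codon. The match of UPOX began 658 bases before it, upstream of the annotated gene start. Those of UGT74E2 and SOT12 lay between gene start and start codon, 186 and 202 bases from it, and that of AT2G41730 lay across the gene start, 127 bases from the codon. AOX1D and OM66 held no such letters in this window. Counted in the 1000 bases before the annotated gene start instead, 2 of 8 genes held the motif, NDB2 and UPOX, against 4.41% of all genes. The start codon window was chosen after the gene start window had been tried. The core TGGGC, the letters of the proteasome-related element known from the promoters of proteasome genes, was searched on both strands. It stood before 3 of the 8 start codons, against 49% of all genes, and in none of the sites printed above.

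**Figure D1:**
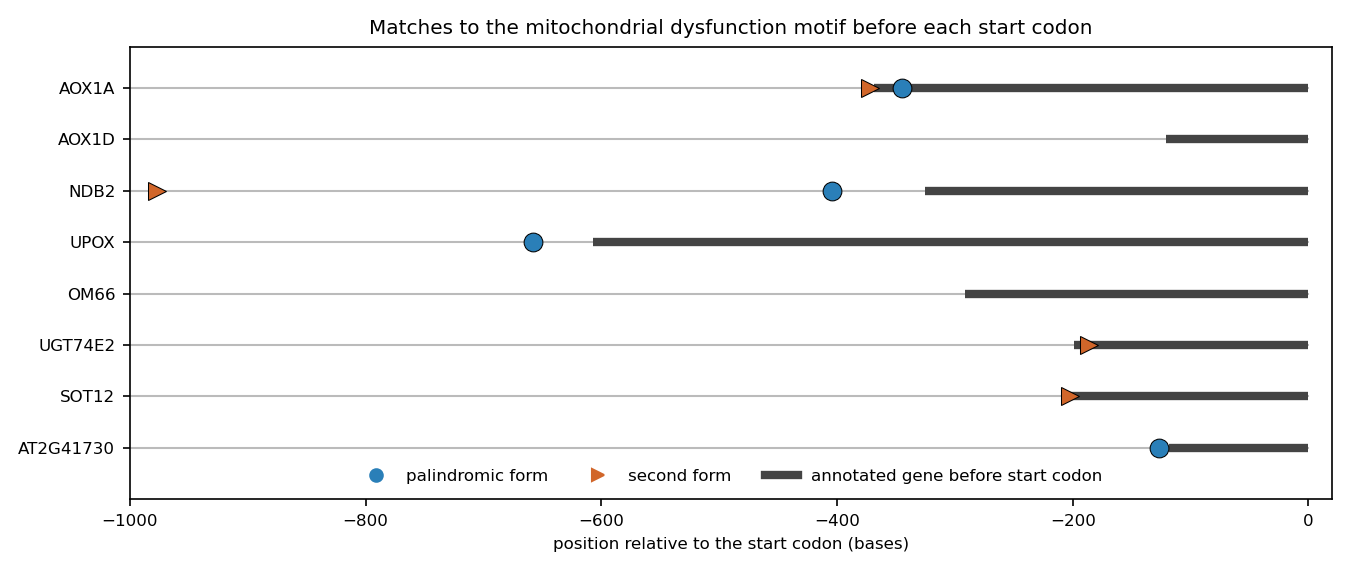
Matches to the mitochondrial dysfunction motif in the 1000 bases before the start codon of each gene (x axis, bases; 0 is the start codon). Circles are the form that ends in CAAG, triangles the form that ends in CACG, and the dark bar is the part of the annotated gene before the start codon. A match is held by 6 of the 8 genes, and in 4 of these one lies across or after the annotated gene start.

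After 3 h of MG132 all 8 genes stood above untreated Col-0 with no overlap between libraries, by 1.73 to 4.49 on the log2 scale in the 7 genes with enough counts for a fitted fold. Among all tested genes 8.68% were called higher and 9.24% lower at 3 h. A call means an adjusted p under 0.05 in edgeR's quasi-likelihood test. All 8 genes were called higher, and since they were chosen with this contrast known, nothing is read from that count. Their calls in the other comparisons below are likewise a description only. By 24 h the 8 genes had parted: AOX1A, AOX1D, NDB2, UPOX and OM66 were still well above untreated Col-0, while UGT74E2, SOT12 and AT2G41730 were back near or below it. The first 5 are known to encode mitochondrial proteins.

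AOX1A (AT3G22370, chr3:7906521-7908746, plus strand) encodes the alternative oxidase that is the usual marker of this response. It was at 174, 179, 182 and 139 CPM after 3 h of MG132 and at 77.1, 88.5, 79.1 and 68.3 CPM after 24 h. Untreated seedlings had 43.6 and 40.2 CPM in rpn10-1, 47.8 and 53.7 CPM in rpn12a-1, and 20.7, 24.2, 16.1 and 19.8 CPM in Col-0. No neighbouring groups in this order of levels overlapped: 3 h was highest, then 24 h, rpn12a-1, rpn10-1 and untreated Col-0. The fitted log2 fold changes were 3.07 at 3 h (SE 0.12), 1.96 at 24 h (SE 0.12), 1.44 in rpn12a-1 (SE 0.15) and 0.96 in rpn10-1 (SE 0.15). At 24 h the mean was 46.4% of that at 3 h.

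AOX1D (AT1G32350, chr1:11666886-11668690, minus strand), a second alternative oxidase known from stressed and ageing leaves, was close to silent without inhibitor. It had 4.61, 3.41, 1.83 and 2.13 CPM after 3 h and 4.07, 4.26, 3.05 and 0.983 CPM after 24 h. The mutants gave 3 counts in rpn10-1 and 0 in rpn12a-1, and untreated Col-0 gave 1 count in 4 libraries. The ratio of summed counts to untreated Col-0, scaled by library size, was 177 at 3 h (95% exact interval 31.3 to 7060) and 155 at 24 h (27.4 to 6170). In rpn10-1 it was 6.3 (0.505 to 331). These intervals cover counting error only, and no fitted fold change is given. The 3 h and 24 h libraries overlapped.

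UPOX (AT2G21640, chr2:9254378-9255743, plus strand) encodes a small mitochondrial protein named for its rise under oxidative stress. It was at 89.6, 65, 91.2 and 60.1 CPM after 3 h and at 47.3, 41.7, 45.5 and 41.4 CPM after 24 h. The mutants had 22.4 and 18.6 CPM in rpn10-1 and 8.29 and 9.31 CPM in rpn12a-1, against 3.17, 4, 4.34 and 6.5 CPM in untreated Col-0. All 5 groups were separate. The log2 fold changes were 4.09 at 3 h (SE 0.2), 3.29 at 24 h (SE 0.2), 2.25 in rpn10-1 (SE 0.24) and 0.91 in rpn12a-1 (SE 0.24). Of the 2 genes called higher in both mutants, UPOX had the larger fold change in rpn10-1 and AOX1A in rpn12a-1, a difference that was not tested. The rpn12a-1 call of UPOX was lost in 7 of 13 alternative analyses, among them each fit that left out 1 of the rpn12a-1 libraries.

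NDB2 (AT4G05020, chr4:2572427-2576599, plus strand) encodes the external NADH dehydrogenase that is often induced together with AOX1A. It was at 69.1, 58.2, 71.7 and 60.5 CPM after 3 h and at 41.1, 49.5, 70.7 and 51.3 CPM after 24 h, and these groups overlapped. Untreated Col-0 replicates 1 and 2, which lack the label note, had 28.2 and 23.4 CPM, and replicates 3 and 4 had 16.7 and 10.9 CPM. The log2 fold change was 1.73 at 3 h (SE 0.24) and 1.45 at 24 h (SE 0.24). Library sets are defined by the label note alone, and a fit within a set has 2 libraries per group. There, rpn10-1 at 14.4 and 18.2 CPM lay below the untreated Col-0 libraries without the note, with a log2 fold change of -0.69. In the other set, rpn12a-1 at 24.1 and 30.6 CPM lay above the untreated Col-0 libraries with the note, at 1.01. Both were called. In the fit of all libraries the mutant values were -0.33 (SE 0.31) and 0.55 (SE 0.31), and neither was called.

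OM66 (AT3G50930, chr3:18929526-18932181, plus strand) encodes an AAA ATPase of the outer mitochondrial membrane, listed in RefSeq under the symbol BCS1. It was at 44.8, 22.4, 51.6 and 45.3 CPM after 3 h and at 33.6, 22.3, 33 and 15.2 CPM after 24 h, against 10.2, 6.35, 5.78 and 4.91 CPM in untreated Col-0. The log2 fold changes were 2.60 at 3 h (SE 0.41) and 1.93 at 24 h (SE 0.4). Both rpn10-1 libraries, at 16.1 and 18 CPM, stood above every untreated Col-0 library, with a log2 fold change of 1.28 (SE 0.49) that was not called, though it was in 3 of 13 alternative analyses. The rpn12a-1 libraries disagreed, at 7.12 and 28.4 CPM. Without rpn12a-1 replicate 2 the log2 fold change was 0.12, and without replicate 1 it was 2.10, so this value rests on 1 library.

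UGT74E2 (AT1G05680, chr1:1703002-1704838, minus strand) encodes a glucosyltransferase that acts on the auxin precursor indole-3-butyric acid. It was at 83, 65.5, 144 and 105 CPM after 3 h but at 0.858, 0.905, 1.84 and 2.95 CPM after 24 h, against 3.1, 3.79, 4.19 and 6.64 CPM in untreated Col-0. Every 3 h library was above and every 24 h library below all untreated ones. The mutants were also below all untreated Col-0 libraries, with 1.23 and 1.21 CPM in rpn10-1, which overlapped the 24 h libraries, and 0.588 and 0.47 CPM in rpn12a-1, the lowest of the 5 groups. The log2 fold changes were 4.49 at 3 h (SE 0.2), -1.44 at 24 h (SE 0.23), -1.38 in rpn10-1 (SE 0.32) and -3.42 in rpn12a-1 (SE 0.33). The values other than that at 3 h rest on few counts: 10 in each rpn12a-1 library, 18 and 13 in rpn10-1, and 8 to 42 after 24 h. The 24 h mean was 1.65% of the 3 h mean. The rpn10-1 call was lost without rpn10-1 replicate 1, at -1.40.

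AT2G41730 (chr2:17409370-17410334, plus strand), described in RefSeq as a calcium-binding site protein and used as a marker of mitochondrial dysfunction, followed the same course. It was at 64.4, 60.9, 55.6 and 41.7 CPM after 3 h and at 1.93, 1.18, 1.9 and 1.12 CPM after 24 h. The mutants had 1.44 and 1.96 CPM in rpn10-1 and 1 and 1.32 CPM in rpn12a-1, against 2.57, 4.1, 2.46 and 2.84 CPM in untreated Col-0. The log2 fold changes were 4.23 at 3 h (SE 0.2), -0.93 at 24 h (SE 0.23), -0.95 in rpn10-1 (SE 0.29) and -1.19 in rpn12a-1 (SE 0.29). These low levels rest on 13 to 41 counts per library in the 4 groups other than 3 h. The mutant calls were lost in 5 of 13 alternatives for rpn10-1 and 6 of 13 for rpn12a-1, without a change of direction, and the 24 h call was lost in the noted libraries alone, at -0.76.

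SOT12 (AT2G03760, chr2:1149295-1150663, minus strand) encodes a sulfotransferase known to act on salicylic acid and brassinosteroids. It had the highest CPM of the 8 genes at 3 h, 349, 333, 301 and 279 CPM, and 31.3, 35.9, 41.5 and 37.4 CPM after 24 h. The mutants were at 19 and 22.5 CPM in rpn10-1 and at 21.1 and 23 CPM in rpn12a-1, against 23, 26.4, 24.7 and 24.3 CPM in untreated Col-0. The log2 fold change was 3.68 at 3 h (SE 0.12) and 0.57 at 24 h (SE 0.11). In the mutants it was -0.25 and -0.15 (SE 0.15 each) and was not called. SOT12 thus stayed above untreated Col-0 at 24 h, though its mean was 11.6% of that at 3 h, and its 24 h call was lost in the libraries without the note, at 0.44.

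**Figure D2:**
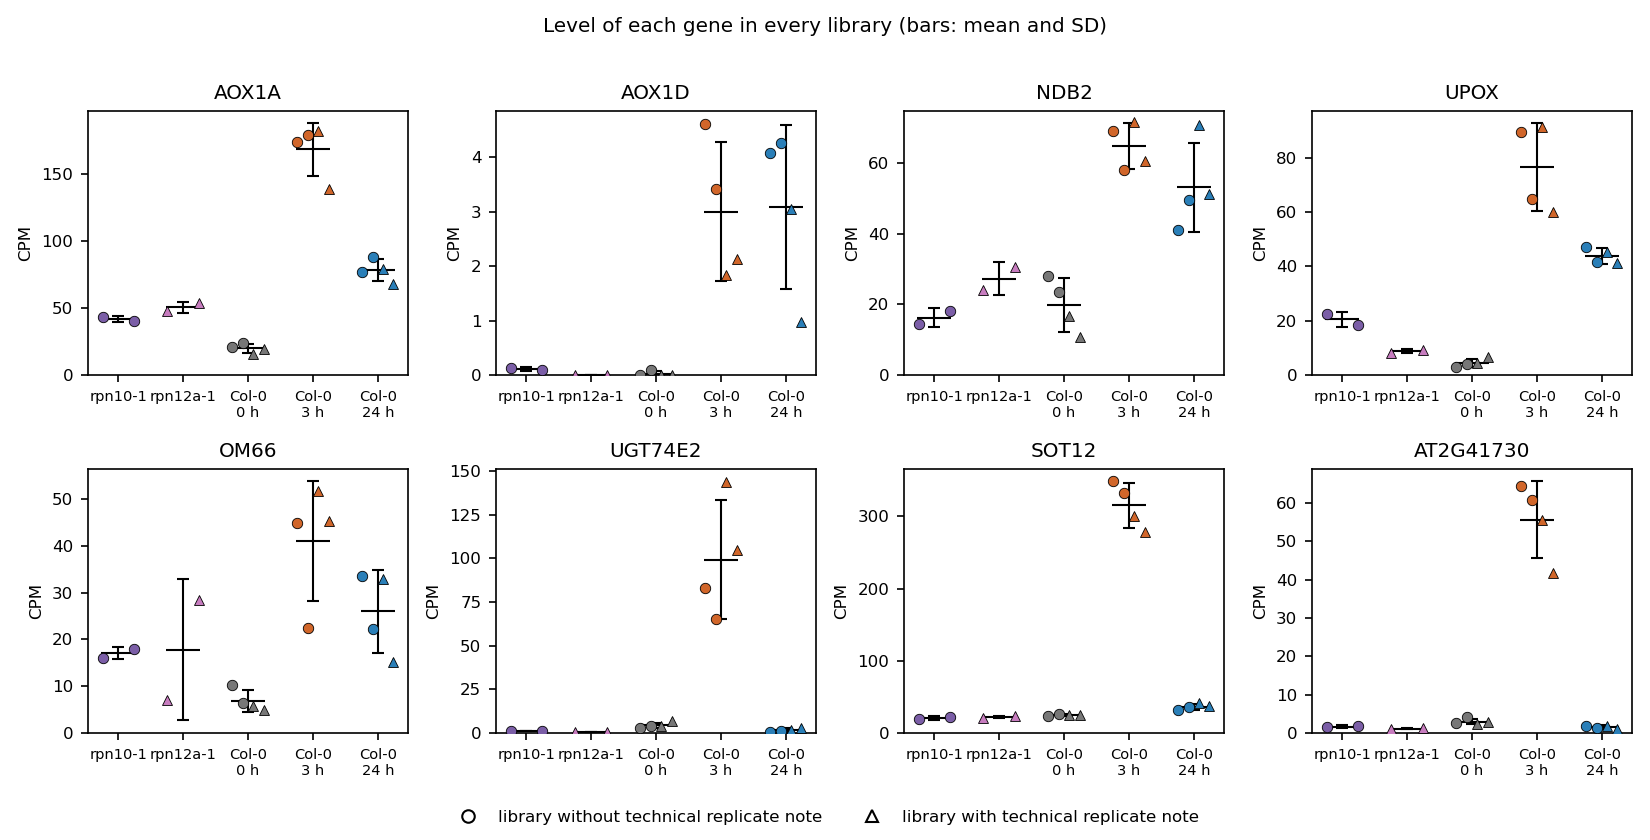
CPM (y axis, linear and separate for each gene) of the 8 genes in every library, by group on the x axis, where 0 h is untreated. Points are libraries, circles without and triangles with the technical replicate note, and bars are the mean and SD. AOX1A, AOX1D, NDB2, UPOX and OM66 keep raised levels at 24 h. UGT74E2 and AT2G41730 are high at 3 h and below untreated Col-0 at 24 h. SOT12 is high at 3 h and at 31.3 to 41.5 CPM at 24 h, still above the 23 to 26.4 CPM of untreated Col-0.

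Set against 3 h, the level at 24 h was 103% for AOX1D, 81.9% for NDB2, 63.4% for OM66, 57.5% for UPOX and 46.4% for AOX1A. It was 11.6% for SOT12, 2.76% for AT2G41730 and 1.65% for UGT74E2. Between 24 h and 3 h, 8.27% of all tested genes were called higher and 7.76% lower, and 5 of the 8 genes were called lower. NDB2, OM66 and AOX1D were not called in this comparison, at -0.28 (SE 0.23), -0.67 (SE 0.37) and overlapping counts. Against untreated Col-0, 12.6% of genes were called higher at 24 h and 13.8% lower. At 24 h 6 of the 8 were called higher and UGT74E2 and AT2G41730 lower. AOX1D, among the 6, passed the filter on low counts through the MG132 libraries alone. Over the 16 libraries, Pearson's r of log2 CPM was 0.76 to 0.94 among AOX1A, AOX1D, NDB2, UPOX and OM66, and 0.92 to 0.96 among UGT74E2, SOT12 and AT2G41730. It was 0.41 to 0.83 for pairs across these groups. The groups were formed after their values were seen, and all 8 genes share libraries and depth, so r is a description.

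**Figure D3:**
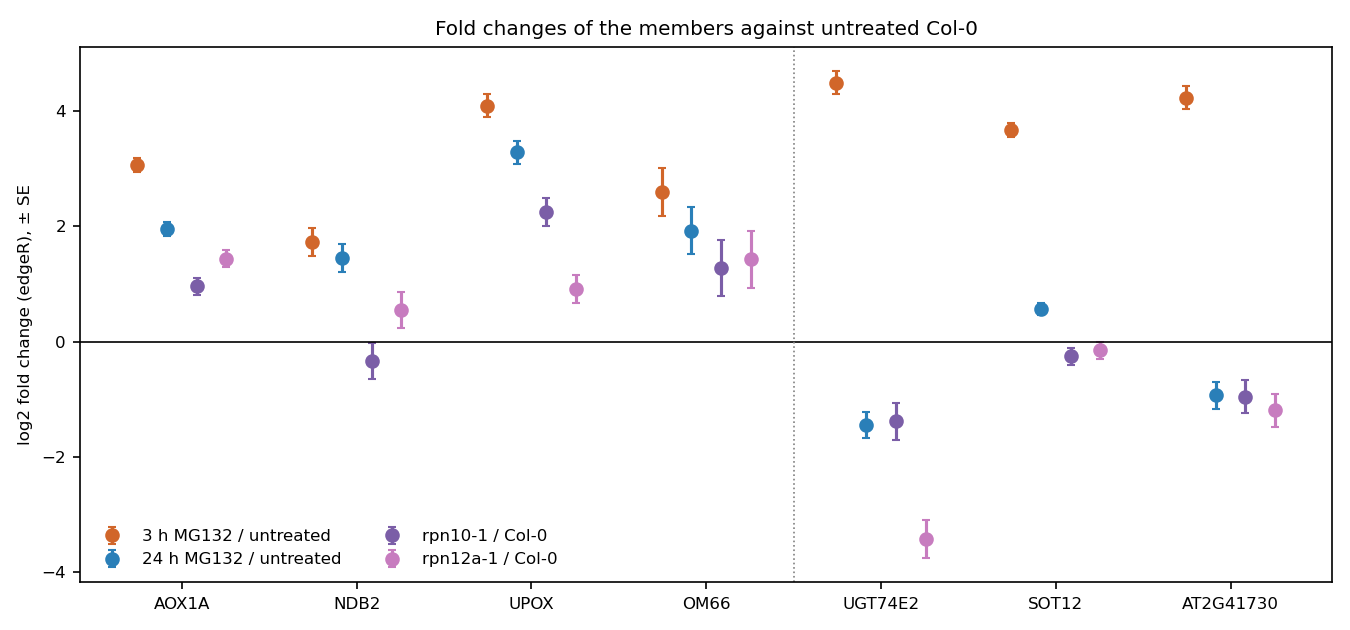
Log2 fold change (y axis, fitted by edgeR, error bars SE) of 7 genes against untreated Col-0, for 3 h and 24 h of MG132, rpn10-1 and rpn12a-1. AOX1D is left out because untreated Col-0 holds 1 count. Left of the dotted line the 24 h values lie between 1.45 and 3.29, and right of it between -1.44 and 0.57.

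In the mutants the 8 genes did not move as a block. In rpn10-1, where 11.4% of genes were called higher and 11.5% lower, AOX1A and UPOX were called higher and UGT74E2 and AT2G41730 lower. In rpn12a-1, where 2.64% were called higher and 2.26% lower, the calls fell on the same 4 genes in the same directions. Not all of these calls were stable, though no direction changed. In rpn12a-1, those of UPOX and AT2G41730 were lost in 7 and 6 of 13 alternative analyses, and only those of AOX1A and UGT74E2 held in all. No fit that left out a library of rpn12a-1 or untreated Col-0 kept all 4 rpn12a-1 calls. In rpn10-1, those of AT2G41730 and UGT74E2 were lost in 5 and 1 of 13. Both comparisons share the untreated Col-0 libraries, so the likeness of these directions is not independent. The mean of AOX1A was 24.8% of the 3 h mean in rpn10-1 and 30.1% in rpn12a-1. For UPOX these shares were 26.8% and 11.5%. Leaving out the rpn10-1 library with seed storage RNA gave 1.01 for AOX1A and 2.37 for UPOX.

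Per kilobase of exon, AOX1A made up nearly all alternative oxidase RNA in every group. Its share was 96.3% ± 0.84 at 3 h (SD, n = 4), 92.6% ± 2.3 at 24 h (n = 4), 94.6% ± 2.3 in rpn10-1 (n = 2), 98.3% ± 0.89 in rpn12a-1 (n = 2) and 94.4% ± 2.4 in untreated Col-0 (n = 4). The family summed to 99.3 ± 11.9 CPM per kb at 3 h and 48 ± 5.85 at 24 h, against 12.1 ± 2.11 CPM per kb in untreated Col-0. AOX1B, which lies next to AOX1A on chromosome 3, had 56 counts at 3 h and 75 at 24 h, against 0 in untreated Col-0. Against a floor of 3 counts over the 4 untreated libraries it was at least 24.4-fold higher at 3 h and 26.4-fold higher at 24 h. The lower limits of the exact 95% interval of the ratio, which also take in the counting error of the MG132 libraries, were 19.2 and 21. AOX1C was at -0.18 and -0.58 on the log2 scale and was not called at either time (edgeR adjusted p = 0.84 and 0.38). Reads shared between near-identical alternative oxidases could be split or dropped by the authors' counting, so the low members are uncertain.

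Among the type II NAD(P)H dehydrogenases, which by-pass complex I, NDB2 made up 31.1% ± 4.2 of the RNA per kb at 3 h (SD, n = 4) and 26.9% ± 5 at 24 h (n = 4), against 12.5% ± 4 in untreated Col-0 (n = 4). It was 9.99% ± 1.7 in rpn10-1 and 16% ± 1.8 in rpn12a-1 (n = 2 each). NDB4 also rose, by a log2 fold change of 3.10 at 3 h (edgeR adjusted p = 2.1e-05) and 2.84 at 24 h (adjusted p = 3.4e-05). NDA2, an internal dehydrogenase, rose by 0.62 at 3 h and 0.58 at 24 h (edgeR adjusted p = 0.017 for both). The whole family summed to 81.9 ± 6.86 CPM per kb at 3 h and 76.7 ± 6.52 at 24 h, against 61.1 ± 11.6 CPM per kb in untreated Col-0.

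**Figure D4:**
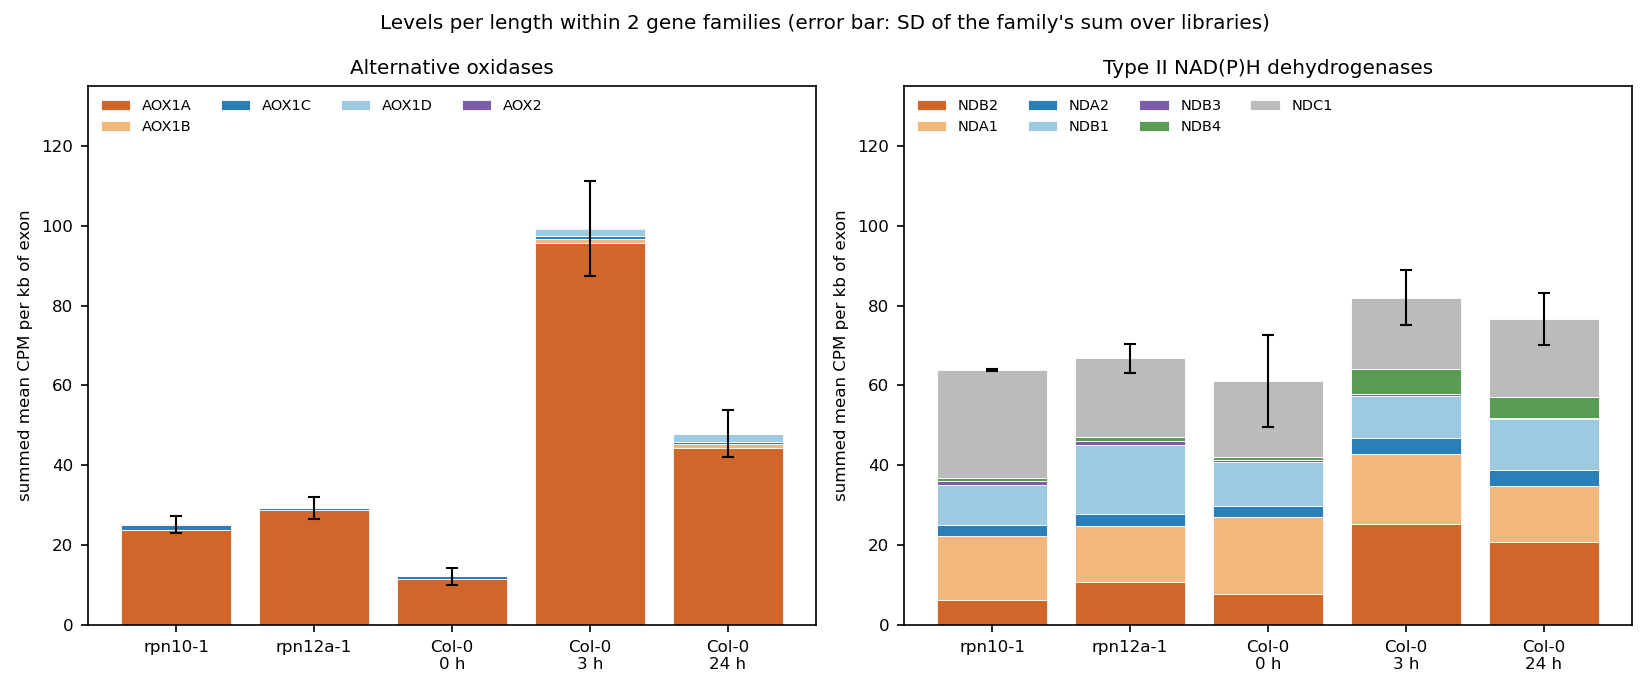
Mean CPM per kb of exon (y axis, stacked by gene) in each group for the 5 alternative oxidases (left) and the 7 type II NAD(P)H dehydrogenases (right), where 0 h is untreated. Error bars are the SD of the family's sum. AOX1A fills nearly the whole bar in each group, while NDB2 is 31.1% of its family at 3 h and 12.5% in untreated Col-0.

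Of 21 relatives of the members, alternative oxidases, dehydrogenases, AAA ATPases, glucosyltransferases and sulfotransferases, 19 were tested. The list also counts AT1G05670, which lies near UGT74E2 and which RefSeq describes as a pentatricopeptide repeat protein. As this list too was chosen with earlier results known, its calls and adjusted p-values, here and for the families above, are a description. At 3 h 9 were called higher and 1 lower, against 8.68% and 9.24% of all tested genes. By 24 h 6 were higher and 1 lower, against 12.6% and 13.8%. The median log2 fold change was 0.40 at 3 h and 0.11 at 24 h, also with AOX1B at its bound, against -0.01 and -0.03 over all tested genes. AT1G05675, the neighbour of UGT74E2, rose by 4.63 at 3 h (edgeR adjusted p = 5.7e-08) and by 1.44 at 24 h (adjusted p = 0.0043). It averaged 23.7 ± 4.81 CPM at 3 h, 2.6 ± 0.955 CPM at 24 h and 0.966 CPM in untreated Col-0. Of the ATPase relatives of OM66, AT2G18193 rose by 2.93 at 3 h (adjusted p = 3.3e-07) and AT5G17760 rose by 1.24 at 3 h (adjusted p = 0.016) and by 3.14 at 24 h (adjusted p = 6.7e-06). AT2G18193 fell in rpn12a-1, by 1.48 (adjusted p = 0.0077), a call that was lost without rpn12a-1 replicate 2. Members of these families can share reads, so their values are uncertain to that extent.

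Of 13 regulators of the response, 5 were called higher at 3 h and 7 at 24 h, and none lower, with medians of 0.64 and 0.34. Like the members, they were chosen with earlier results of these data known, so their calls and adjusted p-values are a description. The shares over all tested genes were 8.68% higher and 9.24% lower at 3 h, and 12.6% higher and 13.8% lower at 24 h. NAC013 rose at both times and averaged 58.8 ± 14.7 CPM after 3 h (SD, n = 4) and 22.5 ± 2.08 CPM after 24 h (n = 4), against 9.21 ± 1.33 CPM in untreated Col-0 (n = 4). Its log2 fold changes were 2.66 and 1.29 (edgeR adjusted p = 6.4e-08 and 6.6e-05). NAC017 averaged 46.1 ± 4.5 CPM at 3 h and 49.4 ± 6.43 CPM at 24 h, against 45.5 ± 3.04 CPM in untreated Col-0 (SD, n = 4 each), and was not called in any comparison (edgeR adjusted p = 0.46 to 0.95). NAC053 and NAC078 are a pair of NAC factors known to control proteasome genes. They rose by 1.29 and 0.68 at 3 h (adjusted p = 0.00035 and 0.00012) and by 0.82 and 0.34 at 24 h (adjusted p = 0.0069 and 0.014). RCD1, the restraint on NAC013 and NAC017, rose by 0.64 at 3 h (adjusted p = 0.0097) and 0.89 at 24 h (adjusted p = 0.00076). CRF6, a cytokinin response factor tied to this pathway, rose by 1.27 at 3 h (adjusted p = 9e-06). In rpn10-1 no regulator was called by edgeR's test or by DESeq2, with 4 at an unadjusted p under 0.05, and in rpn12a-1 none was called by either, with 3 at that unadjusted level. The medians were -0.08 and 0.09. Among all tested genes 11.4% were called higher and 11.5% lower in rpn10-1, and 2.64% higher and 2.26% lower in rpn12a-1. NAC013 overlaps a gene on the opposite strand, as do some other named genes, and the library kit does not mark strand, so their reads cannot be told apart.

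A further 17 genes of the response, chosen like the members with earlier results known, included NAC013 and CRF6. Their calls and adjusted p-values are therefore a description, and nothing is read from the counts of calls. At 3 h 16 of the 17 were called higher and none lower, with a median of 2.54, against 8.68% and 9.24% of all tested genes. By 24 h 11 were higher and 1 lower, with a median of 1.36, against 12.6% and 13.8%. GSTU25 and GSTU24, tau-class glutathione transferases, rose by 4.99 and 3.48 at 3 h (edgeR adjusted p = 2.2e-06 and 1.7e-06) and by 4.01 and 2.77 at 24 h (adjusted p = 1.4e-05 and 1e-05). ABCB4, an auxin transporter, rose by 3.15 at 3 h (adjusted p = 5e-07) and 2.45 at 24 h (adjusted p = 3.6e-06). CYP81D8, a cytochrome P450, rose by 4.75 at 3 h (adjusted p = 3.2e-08) and was 3.39 lower on the log2 scale at 24 h than at 3 h (log2 fold change -3.39, adjusted p = 1.2e-06). AT5G43450, an oxygenase, rose by 3.26 at 3 h and was at -0.65 against untreated Col-0 at 24 h (adjusted p = 8.1e-09 and 0.016). TIM17-1, a subunit of the inner membrane translocase, rose by 3.41 at 3 h and 4.24 at 24 h (adjusted p = 3.8e-05 and 2.3e-06).

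In rpn10-1, 2 of these 17 genes were called higher and 4 lower, with a median of -0.29, and without the library with seed storage RNA 2 were higher and 1 lower. In rpn12a-1, 2 were higher and 2 lower, with a median of 0.14. The shares over all tested genes were 11.4% higher and 11.5% lower in rpn10-1, and 2.64% higher and 2.26% lower in rpn12a-1. AT1G24095, described as a putative thiol-disulfide oxidoreductase, was called higher in all 4 comparisons with untreated Col-0. Its log2 fold change was 2.54 at 3 h, 2.11 at 24 h, 2.01 in rpn10-1 and 2.16 in rpn12a-1 (edgeR adjusted p = 1.7e-08, 7.8e-08, 1.9e-06 and 1.3e-06). AT2G04050, a MATE efflux family protein, rose by 2.51 at 3 h (adjusted p = 1.5e-07). It fell in both mutants, with a log2 fold change of -2.40 in rpn10-1 and -1.35 in rpn12a-1 (adjusted p = 2e-05 and 0.0024). TIM17-1 rose by 2.79 in rpn12a-1 (adjusted p = 0.0022).

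Other mitochondrial genes were set beside these. Their lists, here and in the next paragraph, were likewise chosen with earlier results known, so calls and adjusted p-values are a description. Of 22 chaperones, proteases, prohibitins and inner membrane translocase subunits of mitochondria, 12 were called higher at 3 h and 11 at 24 h. None was called lower, and the medians were 0.56 and 0.37. Among all tested genes 8.68% were higher and 9.24% lower at 3 h, and 12.6% higher and 13.8% lower at 24 h. The largest called rises at 3 h were those of HSP23.6, a mitochondrial small heat shock protein, by 5.66 (edgeR adjusted p = 1.3e-09), of the HSP20-like gene AT5G51440, by 4.92 (adjusted p = 8.5e-09), and of CLPB4, a disaggregase, by 1.66 (adjusted p = 3.7e-07). HSP23.6 averaged 71.9 ± 16.8 CPM at 3 h and 1.26 ± 0.729 CPM at 24 h, against 1.45 CPM in untreated Col-0. It was also called lower in both mutants (adjusted p = 0.0052 in rpn10-1 and 0.00012 in rpn12a-1), which held 4 and 2 counts in all, against 79 counts in untreated Col-0, too few for a fitted fold change to be given. MGE1 (AT5G55200), the nucleotide exchange factor of the mitochondrial HSP70, rose by 1.64 at both 3 h and 24 h (adjusted p = 7.9e-07 and 5.9e-07), by 0.84 in rpn10-1 (adjusted p = 0.003) and by 0.90 in rpn12a-1 (adjusted p = 0.0044).

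Of 37 subunits of the cytochrome pathway and the other complexes of the respiratory chain, 4 were called higher at 3 h and none lower, against 8.68% and 9.24% of all tested genes. At 24 h 1 was higher and 1 lower, against 12.6% and 13.8%, with medians of 0.27 at 3 h and 0.17 at 24 h. The largest change was that of AT5G25450, listed here as QCR7, by 3.32 at 3 h (edgeR adjusted p = 9.1e-07). RefSeq describes it as a cytochrome bd ubiquinol oxidase subunit, and it is not one of the alternative oxidases above. It rose also in rpn10-1, by 1.59 (adjusted p = 0.0056). In rpn10-1, 2 of the 37 were called higher and 9 lower, with a median of -0.33, against 11.4% higher and 11.5% lower of all tested genes. This count was not stable: without rpn10-1 replicate 2 it was 1 higher and 4 lower, and without the library set term it was 1 and 0. In rpn12a-1 none of the 37 was called by edgeR's test, with 3 at an unadjusted p under 0.05, and DESeq2 called 2 higher. Of 5 uncoupling and dicarboxylate carriers, none was called by edgeR at 3 h, with 1 at an unadjusted p under 0.05, and DESeq2 called 1 higher. DIC2 fell at 24 h, with a log2 fold change of -1.71 (adjusted p = 0.0096).

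**Figure D5:**
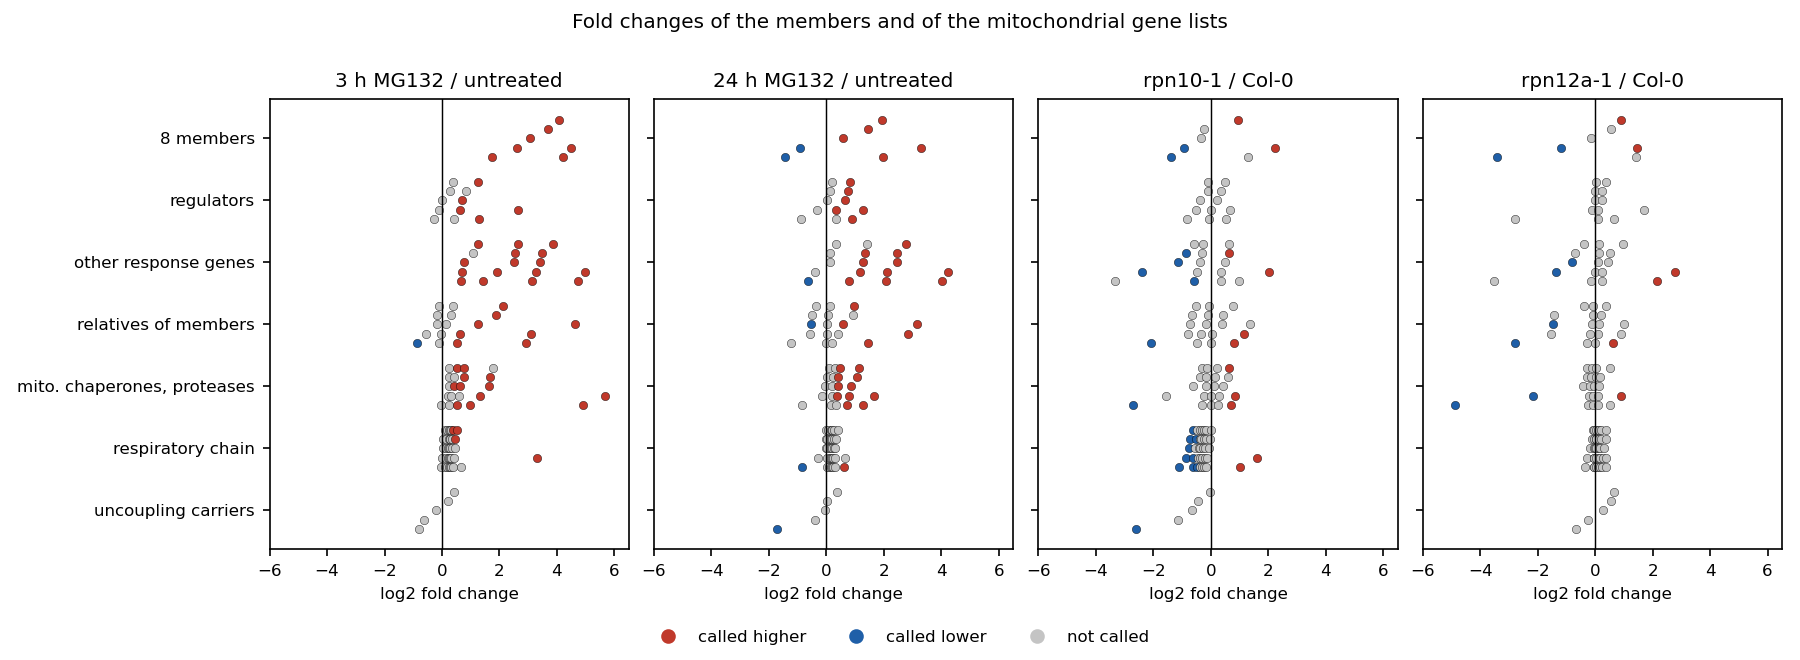
Log2 fold changes (x axis) of the tested genes of each list (rows) in the 4 comparisons with untreated Col-0, coloured by edgeR call. AOX1D, AOX1B and WRKY63 are left out because untreated Col-0 holds 3 counts or fewer of each. At 3 h the members lie between 1.73 and 4.49, the 17 other response genes have a median of 2.54, and the 37 respiratory chain genes have a median of 0.27, with AT5G25450 at 3.32.

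The genes most like the members were those with the highest Pearson correlation of log2 CPM over the 16 libraries, given without a test since all share libraries and groups. Nearest to the mean of the 8 standardised members were Fes1A, a co-chaperone of HSP70 (r = 0.98), AT5G14730 (0.979), iPGAM2, a phosphoglycerate mutase (0.978), and NAC013 (0.977). AOX1A was nearest to RBL14, a rhomboid-like protein (0.981), and AOX1D to AT1G26380, a FAD-binding Berberine family protein (0.979). NDB2 was nearest to GSTU25 (0.961), UPOX to DREB2C (0.961) and OM66 to AT5G25930, a receptor-like kinase (0.954). UGT74E2 was nearest to AT2G18193 (0.983), SOT12 to the heat shock factor HSFA2 (0.984) and AT2G41730 to AT5G43450 (0.979). With Spearman's rank correlation in place of Pearson's, 2 of the 10 genes nearest to the mean were shared. Of the 3 genes nearest to each member, 1 was shared for OM66 and 0 for every other member, so these names depend on the measure.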

How the data were processed

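The 16 deposited files, 1 per library, hold the authors' raw counts of reads per gene as whole numbers. The submitters' processing notes name Trimmomatic, TopHat, Bowtie2 and HTSeq, and also edgeR, with build TAIR10. No source used here gives their versions, the strand setting or the treatment of shared reads. Per the labels' protocols, libraries came from total RNA with a TruSeq v2 kit.

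Genes were kept by filterByExpr, which left 21205, and libraries were scaled by TMM (edgeR 4.0.16, limma 3.58.1, R 4.3.3). The quasi-likelihood model of edgeR held group and library set, over all 16 libraries. A call is a two-sided p under 0.05 after Benjamini-Hochberg adjustment across all tested genes. The SE was taken from the F statistic (absolute log2 change over the root of F) and can be too small near 0. Levels are CPM, divided by exonic length from RefSeq TAIR10.1 where genes are compared. That annotation held 32835 of the 33602 identifiers, and gave the sequences.

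The members and gene lists were chosen with earlier results of these data known, so their calls and p-values are a description. Named genes are all members, called genes of the regulator, relative and response lists, and the 3 largest called changes per comparison of the other lists, of which the text gives a part. No libraries were identical, and chi-square over its degrees of freedom was 7.77 to 69.7 for replicate pairs. The fit was run on counts simulated from its own kind of model, without differences between library sets. Such a run checks the code and cannot test the calls in the real libraries. DESeq2 1.42.0 was an alternative, beside other normalization, filter, terms and left-out libraries. Same-numbered libraries of 3 h and untreated Col-0 deviated together (r 0.23 to 0.5), but not within library sets (-0.07 and 0.03). In the other comparisons with 3 or more pairs, not every pair was above 0.1.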

Additional observations from a re-analysis of the deposited data

Results flagged for a closer look

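UGT74E2 and AT2G41730 moved in opposite directions with time: every library was above untreated Col-0 at 3 h and every library below it at 24 h. Their log2 fold changes at 24 h were -1.44 for UGT74E2 and -0.93 for AT2G41730. The contrast of 24 h with 3 h gave -5.93 (SE 0.22) and -5.15 (SE 0.21), both called lower. Both genes were flagged for this same pattern, so the direction of that contrast was fixed in advance and its values are a description.

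Single libraries far from the other 3 of their group were looked for with Dixon's ratio in 170 groups of the 57 members, relatives, regulators and response genes, and 8 were found, where chance flags about 1 in 20. AOX1D had 0.102 CPM in untreated Col-0 replicate 2, from 1 count, and 0 in the others. NAC013 was at 11.2 CPM and NAC017 at 41 CPM in untreated Col-0 replicate 4, against 8.51 to 8.61 CPM and 46.5 to 47.5 CPM in the others. ABI4 was at 2.6 CPM and NDB3 at 0.702 CPM in replicate 4 of 24 h. AT2G04070 was at 7.74 CPM in replicate 3 of 24 h, against 1.5 to 2.53 CPM in the others. NDA2 was at 9.01 CPM in replicate 1 of 24 h, and AOX2 at 0.0723 CPM in untreated Col-0 replicate 3.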

How the results depend on the processing

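Of 590 fitted fold changes of the members under alternatives, 560 stayed on the same side of the threshold and 0 changed sign with a call. In 21 a call was lost and in 9 one was gained. The 560 include changes of sign where neither fit was called, as for AOX1D in rpn12a-1. Genes called in rpn12a-1 numbered 1039, against 1983 without the filter on low counts and 2124 with a replicate block in place of the library set. The replicate block gave 3276 at 3 h (3800 without it), 4945 at 24 h (5595), 2787 for 24 h against 3 h and 4127 in rpn10-1 (4873), and changed no count of members called. In rpn10-1, 2735 genes were called without the library set term. Libraries without the note gave 1228 genes at 3 h and 5469 for 24 h against 3 h (3398 in all libraries), and libraries with it gave 3633 at 24 h and 1923 for 24 h against 3 h. Leaving out 1 library gave 2666 to 3533 genes at 3 h, 3852 to 6317 at 24 h, 2008 to 4496 for 24 h against 3 h, 2235 to 4755 in rpn10-1 and 495 to 897 in rpn12a-1. The lowest counts of the last 3 came without replicate 1 of 24 h, rpn10-1 replicate 1 and rpn12a-1 replicate 2. Counts also moved by over 1.5 times for 24 h against 3 h without replicate 2 of 24 h (2119) or replicate 2 of 3 h (2185), in rpn10-1 without untreated Col-0 replicate 1 (3217) or 2 (3076), and in rpn12a-1 without rpn12a-1 replicate 1 (564). Members called ranged from 2 to 4 in rpn10-1, with 2 without rpn10-1 replicate 1, and from 2 to 3 in rpn12a-1, with 2 without rpn12a-1 replicate 2 or untreated Col-0 replicate 3. With 1 library left out they stayed at 8, 8 and 5 in the MG132 comparisons. The 24 h calls of SOT12 and AT2G41730 were each lost in a fit of 1 library set alone. OM66 gained a call for 24 h against 3 h in 1 of 16 alternatives. The cause was not tested. Depth limits AOX1D, at 0 to 78 counts, and the low levels of UGT74E2.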
